A study of Homo sapiens with 8 samples.

Results

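Caveolae are small flask-shaped pits of the plasma membrane, and the genes that build them were followed here together with AHNAK, a giant membrane scaffold gene, in human embryonic stem cells on a soft (400 Pa) and a stiff (60 kPa) gel. The 7 genes were taken by name from the deposited tables: the caveolins CAV1 and CAV2, the cavins PTRF, SDPR and PRKCDBP (older symbols of CAVIN1, CAVIN2 and CAVIN3), EHD2 and AHNAK. All 7 had a single row in each table, out of 32415 gene symbols in either table. The cells were H9, a widely used human embryonic stem cell line, whose RNA was sequenced at day 3.5 of a mesoderm induction with bFGF, Activin, VEGF and BMP4, on 400 Pa and on 60 kPa gels, and at day 0, undifferentiated, on the same 400 Pa and 60 kPa gels. Per the labels, feeder-conditioned medium was used on the gels, and each of the 4 groups had 2 libraries (8 in all). The labels do not say whether these were separate cultures, so any p-value measures only the spread between libraries, which may be technical. All cells derive from this 1 line.

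The deposited tables give 1 FPKM (fragments mapped to a transcript, scaled by its length and by the mapped total) per gene and group, with no value per library. No SD therefore stands behind a level, the depth is unknown, and neighbours in an order of levels cannot be said to differ beyond their spread. A gene is called below where the q-value (adjusted p) of the authors' deposited table was below 0.05 and its FPKM reached 1 in a group. A change is the log2 of (FPKM + 1) on the soft gel over (FPKM + 1) on the stiff gel, so positive values are higher on the soft gel. Its standard error (SE) was taken as the authors' log2 ratio over their test statistic. It is approximate and belongs to the ratio without the added 1.

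A caveola forms when caveolins inserted in the membrane meet cytosolic cavins, which coat the pit, while EHD2, an ATPase, sits at its neck. Caveolae flatten when a membrane is stretched and are known as a reserve of membrane and as sensors of tension. AHNAK is a very large scaffold protein beneath the plasma membrane that binds the complex of S100A10 and annexin A2 and takes part in membrane repair.

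The markers followed the labels with 1 exception. DPPA4, a pluripotency gene, was at 131 FPKM on soft and 181 on stiff gel at day 3.5, against 518 on soft and 580 on stiff gel at day 0. All 6 pluripotency markers were lower at day 3.5 than at day 0 on the soft gel, and 5 of 6 on the stiff gel. The exception was SOX2, a pluripotency factor also used by neural progenitors, at 54.0 FPKM on soft and 164 on stiff gel at day 3.5, against 114 on soft and 116 on stiff gel at day 0. All 8 mesoderm markers were at or above 1 FPKM on both gels at day 3.5 and below 1 on both at day 0. HAND1, a lateral mesoderm factor, was at 53.8 FPKM on soft and 6.07 on stiff gel at day 3.5, and ISL1, a heart field factor, at 47.7 on soft and 9.44 on stiff gel. The days were tabulated separately, so a day 3.5 level is only placed beside a day 0 level, with no test. In a bulk sample, fewer cells of a type and less RNA per cell cannot be told apart.

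At day 3.5 AHNAK was the most abundant of the 7 genes on both gels, and at day 0 the cavin PRKCDBP led on the soft gel and CAV1 on the stiff gel. From high to low, the order at day 3.5 on 400 Pa was AHNAK, PTRF, PRKCDBP, EHD2, CAV1, CAV2 and SDPR, and on 60 kPa it was AHNAK, PTRF, PRKCDBP, EHD2, CAV1, CAV2 and SDPR as well. At day 0 it was PRKCDBP, PTRF, CAV1, AHNAK, CAV2, EHD2 and SDPR on 400 Pa. On 60 kPa at day 0 CAV1 stood before PRKCDBP and PTRF, CAV2 before AHNAK, and EHD2 and SDPR were again last.

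**Figure D1:**
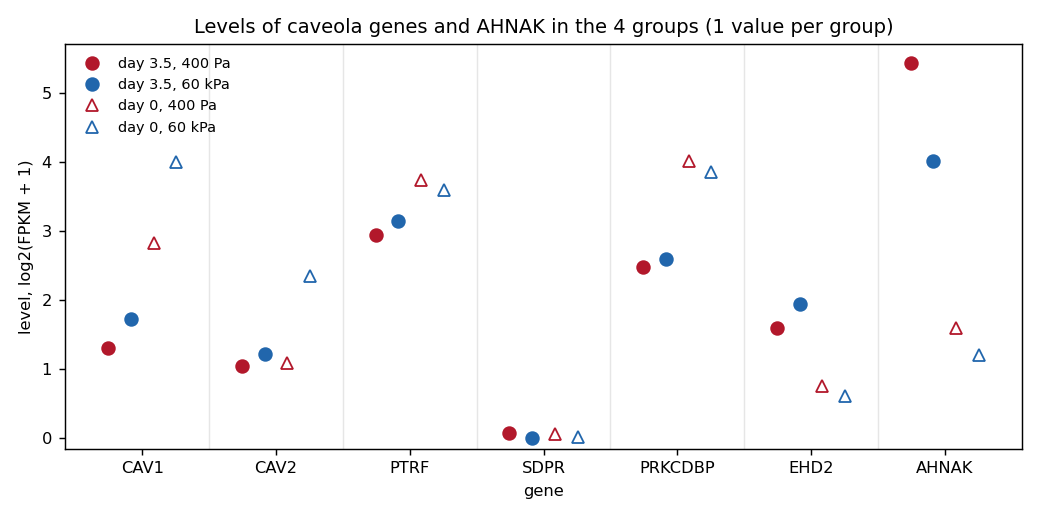
Level as log2(FPKM + 1) of the 7 genes; filled circles are day 3.5 and open triangles day 0, red 400 Pa and blue 60 kPa, each point being the authors' value for a group of 2 libraries. AHNAK stands at 42.3 FPKM on soft and 15.2 on stiff gel at day 3.5, against 2.04 on soft and 1.30 on stiff gel at day 0, while CAV1 and PRKCDBP lie lower at day 3.5 than at day 0.

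Caveolins come first. CAV1, the membrane protein that drives caveola formation, reached 1.49 FPKM on the soft gel and 2.31 on the stiff gel at day 3.5. At day 0 it reached 6.10 FPKM on the soft gel and 15.1 on the stiff gel. CAV1 thus lay lower on the soft gel on both days, and lower at day 3.5 than at day 0 on both gels. CAV2, its partner that joins CAV1 oligomers, reached 1.07 FPKM on the soft gel and 1.34 on the stiff gel at day 3.5. At day 0 CAV2 reached 1.13 on the soft gel and 4.11 on the stiff gel. Of its 4 values, that of undifferentiated cells on the stiff gel was the highest, and the other 3 lay between 1.07 and 1.34.

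Neither caveolin was called. At day 3.5 the change of CAV1 was -0.41 (SE 1.31) and that of CAV2 -0.17 (SE 2.97), each with q = 1.0 in the authors' deposited table. At day 0 the change of CAV1 was -1.18 (SE 0.70), with unadjusted p = 0.00735 and q = 1.0 in the authors' deposited table. At day 0 the change of CAV2 was -1.26 (SE 1.82), with unadjusted p = 0.0117 and q = 1.0 in the authors' deposited table. Both caveolins were lower on the soft gel at an unadjusted p below 0.05, and neither passed after adjustment over all loci. Their statistics in the authors' deposited table (60 kPa over 400 Pa) were 1.87 for CAV1 and 1.03 for CAV2. Both lay below 1.96, the limit of a two-sided normal test at 0.05. The p-values in that table are thus not those of a normal test on these statistics. Without the added 1, the log2 ratio of CAV2 at day 0 was -1.86, about as large as its SE of 1.82.

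CAV2 and CAV1 lie side by side on chromosome 7, between TES and MET. In the authors' tables (build hg19) CAV1 has the interval chr7:116164839-116201264, and CAV2 shares chr7:115850547-116148595 with TES. RefSeq windows, 250 bases before to 50 after a transcript start, were found for CAV1, CAV2, SDPR, EHD2 and AHNAK (8 windows of 5 genes, build GRCh38.p14). The bases before the first listed start of each caveolin gene are shown because the pair lies together and both genes had their highest level in the same group. Capitals mark GGGCGG, the core of an SP1 site, on either strand. The CAV1 stretch is chr7:116524759-116525008 and the CAV2 stretch chr7:116499488-116499737, both on the plus strand of GRCh38.p14.
CAV1: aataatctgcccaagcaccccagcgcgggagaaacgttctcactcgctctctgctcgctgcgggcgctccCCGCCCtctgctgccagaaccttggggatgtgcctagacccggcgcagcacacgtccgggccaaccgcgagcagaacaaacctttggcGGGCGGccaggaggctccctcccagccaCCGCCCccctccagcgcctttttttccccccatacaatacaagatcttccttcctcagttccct
CAV2: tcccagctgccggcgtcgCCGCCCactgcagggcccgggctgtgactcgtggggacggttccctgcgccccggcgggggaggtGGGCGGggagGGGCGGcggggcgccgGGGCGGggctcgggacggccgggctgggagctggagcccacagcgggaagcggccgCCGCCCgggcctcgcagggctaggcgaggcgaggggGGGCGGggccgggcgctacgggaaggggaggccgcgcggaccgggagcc
The CAV1 window holds 3 matches to GGGCGG and the CAV2 window 6. That motif occurs in 45.0% of all 35116 windows of this length. Neither caveolin window holds GGAATG (TEAD), TGANTCA (AP-1) or the CArG box of serum response factor on either strand. Those 3 occur in 14.0%, 7.71% and 1.29% of all windows. These are matches of letters, not sites in use.

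The flanking genes had other values. TES encodes testin, a LIM protein of focal adhesions, and reached 32.6 FPKM on the soft gel and 12.9 on the stiff gel at day 3.5 (change 1.27, SE 0.66), called with q = 0.0278 in the authors' deposited table. At day 0 TES was at 14.5 FPKM on soft and 20.5 on stiff gel (change -0.48, SE 0.52; q = 1.0 in the authors' deposited table). MET, a receptor tyrosine kinase gene on the other side, was at 4.92 FPKM on soft and 4.91 on stiff gel at day 3.5 and at 6.08 on soft and 5.64 on stiff gel at day 0, uncalled on both days in the authors' deposited table. Whether the changes of TES and CAV2 differ from each other was not tested. The tables do not state a strand setting, so reads of AC006159.5, which shares the interval of CAV1 at day 0 at 0.268 FPKM on soft and 0.196 on stiff gel, cannot be told apart from those of CAV1 where both overlap.

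Cavins showed small differences between the gels. PTRF, the coat protein without which caveolae do not form, reached 6.72 FPKM on the soft gel and 7.83 on the stiff gel at day 3.5. At day 0 PTRF reached 12.3 on the soft gel and 11.1 on the stiff gel. PRKCDBP, the cavin that binds protein kinase C delta, reached 4.59 FPKM on the soft gel and 5.07 on the stiff gel at day 3.5, and 15.2 on soft and 13.5 on stiff gel at day 0. Both cavins were closer between gels than between days. The changes of PTRF were -0.19 (SE 0.53) at day 3.5 and 0.14 (SE 0.38) at day 0, both with q = 1.0 in the authors' deposited table. Those of PRKCDBP were -0.12 (SE 0.82) and 0.16 (SE 0.51), again with q = 1.0 in the authors' deposited table. SDPR, the cavin that helps to curve the membrane, was at 0.0529 FPKM on 400 Pa and listed at 0 on 60 kPa at day 3.5, and at 0.0429 on soft and 0.0112 on stiff gel at day 0. SDPR was below the minimum of 1 in every group and was not tested by the authors on either day.

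The interval of PTRF on hg19 is chr17:40554470-40575535, and that of PRKCDBP chr11:6339987-6341877. PTRF lies between STAT3 and ATP6V0A1. ATP6V0A1, a subunit of the proton pump of acidic vesicles, reached 14.7 FPKM on the soft gel and 61.6 on the stiff gel at day 3.5 (change -1.99, SE 0.77), called with q = 0.0346 in the authors' deposited table. PTRF itself, next to it, differed between gels by a factor of 1.17 at day 3.5. The interval of SDPR, chr2:192699028-193060435, is shared with TMEFF2, and its RefSeq window holds 1 match to GGAATG, from 16 to 11 bases before the start (-16 to -11).

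EHD2, which stabilises caveolae at the cell surface, was low throughout. It reached 2.03 FPKM on the soft gel and 2.85 on the stiff gel at day 3.5, and 0.686 on soft and 0.524 on stiff gel at day 0. EHD2 thus stood higher at day 3.5 than at day 0 on both gels, unlike CAV1 and the 2 expressed cavins. The change at day 3.5 was -0.34 (SE 1.47), with q = 1.0 in the authors' deposited table, and at day 0 the gene was not tested by the authors. It shares its interval on hg19, chr19:48110781-48246391, with GLTSCR1, which was at 1.04 FPKM on soft and 2.72 on stiff gel at day 3.5.

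AHNAK was the only one of the 7 genes called, and it was higher on the soft gel at day 3.5. It reached 42.3 FPKM on the soft gel and 15.2 on the stiff gel at day 3.5, a ratio of 2.78. At day 0 it reached 2.04 on the soft gel and 1.30 on the stiff gel, a ratio of 1.57. AHNAK lay higher on the soft gel on both days. Its level was above 85.1% of expressed loci on soft and 66.5% on stiff gel at day 3.5, against 24.7% on soft and 14.9% on stiff gel at day 0. The change at day 3.5 was 1.42 (SE 1.26), with p = 0.00035 and q = 0.0346 in the authors' deposited table. The change at day 0 was 0.40 (SE 0.90), with p = 0.074 and q = 1.0 in the authors' deposited table.

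As for the caveolins at day 0, the p-value of AHNAK was not that of a normal test on its statistic. The statistic in the authors' deposited table was -1.17 (60 kPa over 400 Pa), below the limit of 1.96 for a two-sided normal test at 0.05. The same was true of 36 among 227 calls at day 3.5 whose statistic was finite (15.9%). If a call also needed a statistic past that limit, an alternative chosen after seeing the data, AHNAK would not be called. It would not be called at q below 0.01 either.

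The bases before the AHNAK start listed by RefSeq are shown because AHNAK alone was called. They are chr11:62545827-62546076 on the minus strand of GRCh38.p14, and capitals again mark GGGCGG on either strand.
AHNAK: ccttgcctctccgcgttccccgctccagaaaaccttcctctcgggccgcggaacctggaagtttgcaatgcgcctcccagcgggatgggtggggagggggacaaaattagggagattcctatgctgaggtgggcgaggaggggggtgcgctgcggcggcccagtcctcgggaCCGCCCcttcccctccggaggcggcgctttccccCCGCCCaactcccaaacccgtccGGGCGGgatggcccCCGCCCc
This window holds 4 matches to GGGCGG. It also holds 1 match to GGAATG, 29 to 34 bases after the start and so outside the stretch shown. Like the caveolin windows it holds neither TGANTCA nor the CArG box. On hg19 the authors' interval of AHNAK is chr11:62201016-62323707, and at day 3.5 it also holds RP11-864I4.4, at 0.447 FPKM on soft and 0.193 on stiff gel.

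Over the 7 genes, 1 of 6 tested at day 3.5 was called, against 1.33% of 18225 loci called in either direction (the soft gel was the higher in 1.08% and the stiff gel in 0.252%). Their median change was -0.18, with 1 of 6 above 0, against a median of 0.02 and 51.9% above 0 over all tested loci. At day 0 none of 5 was called in the authors' deposited table, where 0.139% of 17315 loci were called (0.0635% higher on 400 Pa and 0.0751% higher on 60 kPa). Without adjustment, p was below 0.05 in the authors' deposited table for AHNAK at day 3.5 (1 of 6, against 5.93% of loci, the soft gel being higher in 3.79% and the stiff gel in 2.13%). At day 0 it was so for CAV1 and CAV2 in the authors' deposited table (2 of 5, against 1.86% of loci, of which the soft gel had the higher level in 0.907% and the stiff gel in 0.953%). The median change at day 0 was 0.14, with 3 of 5 above 0, against 0.02 and 53.9% over all loci. EHD2 passed the minimum of 1 only through day 3.5, and SDPR never, so the tested genes are not all 7. For 90% of the tested loci the change lay between -0.81 and 0.93 at day 3.5 and between -0.58 and 0.64 at day 0. AHNAK at day 3.5 and both caveolins at day 0 were outside that range.

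**Figure D2:**
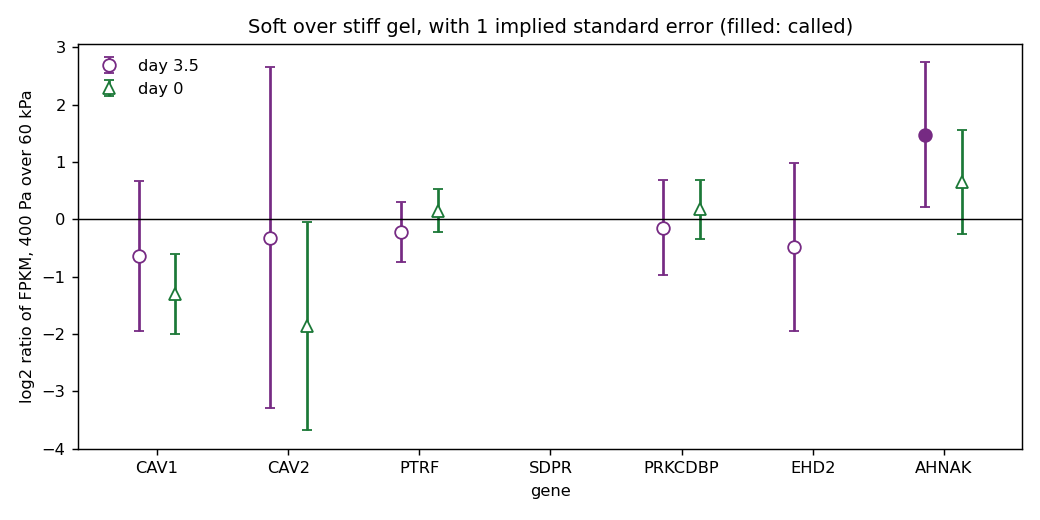
Log2 ratio of FPKM on 400 Pa over 60 kPa, without an added 1, for tested genes; circles are day 3.5, triangles day 0, bars 1 approximate SE, filled points called. AHNAK at day 3.5 is the only filled point, and the bars of PTRF and PRKCDBP cross 0 on both days.

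The change with stiffness was then compared between the days, from both deposited log2 ratios and their approximate errors (normal approximation, adjusted over 14315 genes). None of the 5 genes that could be compared passed, and none had an unadjusted p below 0.05, whereas 11 genes (0.0768%) passed in all and 129 had an unadjusted p below 0.05. With errors of the right size and no real difference, a share of 0.05 is due by definition. Data simulated from the same errors gave 4.95% of unchanged genes, as their construction fixes. The 129 of 14315 are a smaller share. The approximate errors may thus be too large and the comparison too strict. For AHNAK the log2 ratio was 1.47 at day 3.5 and 0.65 at day 0, a difference of 0.83 (SE 1.55; adjusted p = 1.0 from the authors' deposited tables). For CAV1 it was -0.64 at day 3.5 and -1.31 at day 0, a difference of 0.67 (SE 1.48; adjusted p = 1.0 from the authors' deposited tables). These errors are large beside the differences, so the comparison could find only large differences and a missed threshold does not show that the gels acted alike on both days.

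Between day 3.5 and day 0, AHNAK lay on the opposite side from CAV1, PTRF and PRKCDBP on both gels, as values placed beside each other without a test. AHNAK at day 3.5 was 20.7 times its day 0 level on 400 Pa and 11.7 times on 60 kPa, or 3.83 (400 Pa) and 2.82 (60 kPa) as a difference of log2(FPKM + 1). Of 16811 expressed genes, 68 (AHNAK included) had a difference at least as high on 400 Pa and 77 on 60 kPa. PRKCDBP differed by -1.53 on 400 Pa and -1.26 on 60 kPa, CAV1 by -1.51 on 400 Pa and -2.28 on 60 kPa, and PTRF by -0.79 on 400 Pa and -0.45 on 60 kPa. CAV2 differed by -0.04 on 400 Pa and -1.13 on 60 kPa. These 4 lay below 0 on both gels, CAV2 on 400 Pa only barely, while EHD2 lay above 0 with 0.85 on 400 Pa and 1.34 on 60 kPa. SDPR, near 0 FPKM throughout, gave 0.01 on 400 Pa and -0.02 on 60 kPa. The median over all expressed genes was 0.00 on 400 Pa and 0.01 on 60 kPa, and 90% of genes lay between -1.06 and 1.38 on 400 Pa and between -0.89 and 1.11 on 60 kPa. PTRF on both gels and CAV2 on 400 Pa lay within that range. CAV1 on 60 kPa was among the lowest 65 of the 16811 genes.

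**Figure D3:**
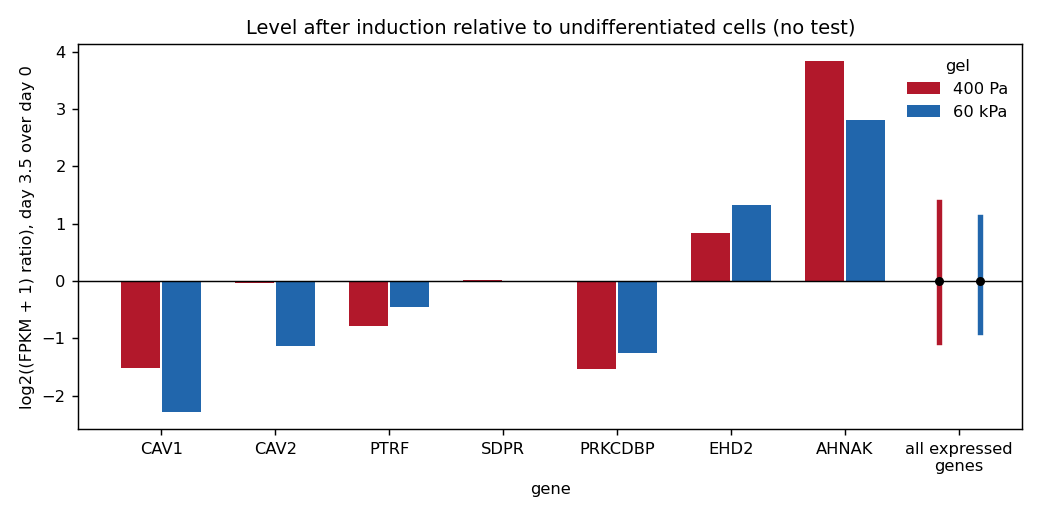
Bars give the difference of log2(FPKM + 1) between day 3.5 and day 0 for each gene, red on 400 Pa and blue on 60 kPa; the lines at the right span 90% of all expressed genes with their median as a dot. AHNAK stands above that range on both gels (3.83 on 400 Pa and 2.82 on 60 kPa), and CAV1 and PRKCDBP below it.

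Summed over the 4 expressed coat genes CAV1, CAV2, PTRF and PRKCDBP, the level was 13.9 FPKM (soft gel) and 16.5 FPKM (stiff gel) at day 3.5, and 34.8 FPKM (soft) and 43.8 FPKM (stiff) at day 0. AHNAK per unit of that sum was 3.05 on soft and 0.921 on stiff gel at day 3.5, against 0.0587 on soft and 0.0298 on stiff gel at day 0. Caveolins made up 18.5% of the sum on soft and 22.1% on stiff gel at day 3.5, and 20.8% on soft and 43.9% on stiff gel at day 0. The larger share belongs to undifferentiated cells on the stiff gel, where both caveolins were highest. PTRF over PRKCDBP was 1.46 on soft and 1.55 on stiff gel at day 3.5, and 0.812 on soft and 0.822 on stiff gel at day 0. The 2 cavins thus kept close ratios between gels, with their order turned between days. CAV1 over CAV2 was 1.39 on soft and 1.72 on stiff gel at day 3.5, and 5.40 on soft and 3.67 on stiff gel at day 0. CAV2 was near the minimum of 1 FPKM at day 3.5 (1.07 on soft and 1.34 on stiff gel) and on the soft gel at day 0 (1.13). Neither caveolin was called, and these shares and ratios were not tested.

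Several genes linked to AHNAK or to membrane repair were also higher on the soft gel at day 3.5. Of 13 genes listed for AHNAK partners and membrane repair, 12 were tested at day 3.5, and the authors' deposited table called 4 higher on the soft gel and none higher on the stiff gel. Over all loci tested that day 1.33% were called, 1.08% with the higher level on soft. The median change of the 12 was 0.68, with 9 above 0, against 0.02 and 51.9% above 0 over all tested loci. This list was chosen with earlier results of these data known, so these counts are no independent support for the AHNAK result. S100A10, which binds AHNAK directly, reached 77.3 FPKM on the soft gel and 21.7 on the stiff gel (change 1.79, SE 0.61; q = 0.0139 in the authors' deposited table). ANXA2, the annexin of the same complex, was at 341 on soft and 119 on stiff gel (1.52, SE 0.66; q = 0.0410 in the authors' deposited table). ANXA1, an annexin recruited to membrane wounds, was at 46.8 on soft and 10.6 on stiff gel (2.04, SE 0.54), and S100A11, its S100 partner, at 296 on soft and 96.7 on stiff gel (1.61, SE 0.48), both with q = 0.00783 in the authors' deposited table. AHNAK2, the paralog of AHNAK, was at 0.591 FPKM on soft and 1.50 on stiff gel (-0.65, SE 0.97) and was not called in the authors' deposited table.

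At day 0 the genes of this list that were called at day 3.5 gave values on the other side. In the authors' deposited table none of 11 tested genes of the list was called at day 0 (0.139% over all loci). Without adjustment 3 (S100A10, ANXA1 and S100A11, all higher on the stiff gel) had p below 0.05 there. Of all loci 1.86% had so (0.953% higher on stiff). The median change was -0.18, with 4 of 11 above 0, against 0.02 and 53.9% over all loci. S100A10 reached 19.1 FPKM on the soft gel and 38.6 on the stiff gel (-0.98, SE 0.53), and ANXA1 was at 12.7 on soft and 25.4 on stiff gel (-0.94, SE 0.43). AHNAK had a day 0 change of the other sign, 0.40, which was uncalled. The change of ANXA1 differed between the days (log2 ratio 2.14 at day 3.5 and -0.99 at day 0, difference 3.13, SE 0.69, adjusted p = 0.00952 by the normal approximation over 14315 genes of the authors' deposited tables), and those of S100A10, S100A11 and ANXA2 missed the threshold (adjusted p = 0.307, 0.307 and 1.0). Between the days, S100A10 differed by 1.96 on 400 Pa and -0.80 on 60 kPa, ANXA2 by 1.85 on 400 Pa and -0.12 on 60 kPa, whereas AHNAK stood higher at day 3.5 on both gels. AHNAK over S100A10 was 0.548 on soft and 0.703 on stiff gel at day 3.5, against 0.107 on soft and 0.0338 on stiff gel at day 0.

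**Figure D4:**
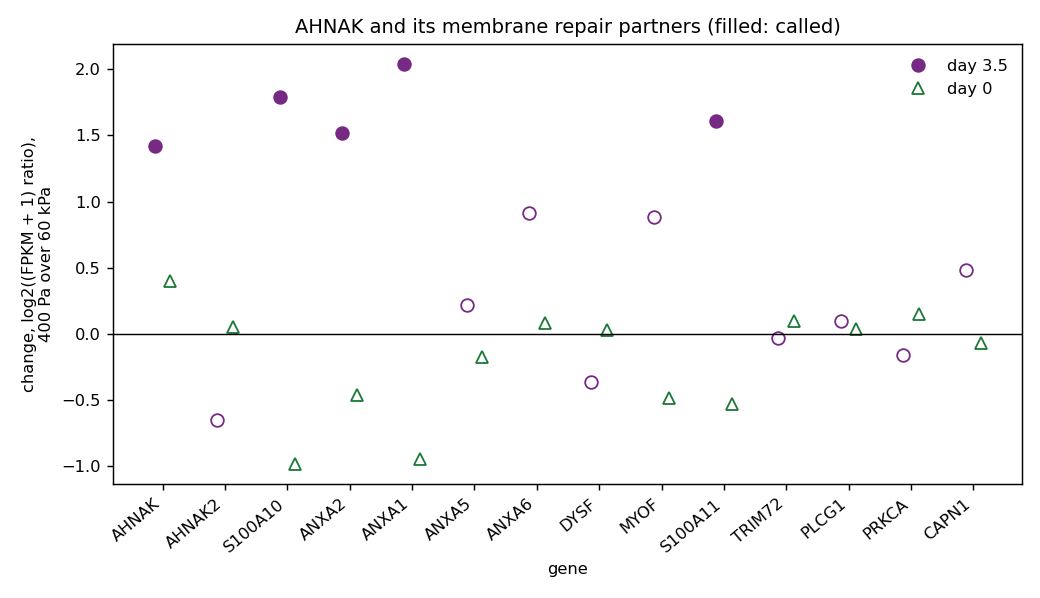
Change with stiffness, log2((FPKM + 1) ratio) of 400 Pa over 60 kPa, for AHNAK and the 13 genes listed for AHNAK partners and membrane repair. Circles are day 3.5 and triangles day 0, filled where called. At day 3.5 AHNAK, S100A10, ANXA2, ANXA1 and S100A11 are filled and lie between 1.42 and 2.04.

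Other genes of caveolae and of their neighbourhood had no call on either day in the authors' deposited tables. Over all tested loci 1.33% were called at day 3.5 and 0.139% at day 0. An unadjusted p below 0.05 was found there for 5.93% of loci at day 3.5 and 1.86% at day 0. With such shares, no call in lists this small does not show that the genes were unaffected. Of 11 listed accessory genes 9 had a row of their own. The 8 tested at day 3.5 (EHD1, EHD3, EHD4, PACSIN1, PACSIN3, ROR1, DNM2 and PLVAP) had a median change of 0.01, with 4 above 0. The 7 tested at day 0 had a median of 0.13. None was at an unadjusted p below 0.05 on either day in the authors' deposited tables. DNM2, the dynamin that cuts vesicles from the membrane, reached 57.1 FPKM on the soft gel and 60.9 on the stiff gel at day 3.5, and 53.6 on soft and 53.7 on stiff gel at day 0. ROR1, a receptor known to scaffold CAV1 and PTRF, was at 14.1 on soft and 15.3 on stiff gel at day 3.5, and at 24.0 on soft and 20.0 on stiff gel at day 0. Of 9 receptors and enzymes described in caveolae and tested at day 3.5 none was called or had an unadjusted p below 0.05 (day 0, none called of 9 and 1, CD36, at the unadjusted level) in the authors' deposited tables. BMPR1A, a BMP receptor, was at 55.6 FPKM on soft and 43.5 on stiff gel at day 3.5, and TGFBR1, a TGF-beta receptor, at 34.2 on soft and 35.3 on stiff gel.

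Flotillins and related raft proteins mark flat membrane domains. Of 7 such genes listed, 4 had a row of their own (FLOT1, STOM, ERLIN2 and PAG1). Of these 4, all tested at day 3.5, none was called and 1, PAG1, had an unadjusted p below 0.05 in the authors' deposited table. Of 3 tested at day 0 none had either. Over all loci 1.33% were called and 5.93% had an unadjusted p below 0.05 at day 3.5, against 0.139% and 1.86% at day 0. FLOT1 reached 58.2 FPKM on the soft gel and 39.2 on the stiff gel at day 3.5, and 47.4 on soft and 45.9 on stiff gel at day 0. STOM, the red cell protein stomatin, was at 62.9 on soft and 78.6 on stiff gel at day 3.5, and at 15.5 on soft and 6.14 on stiff gel at day 0. The clathrin coat, the other main route of uptake, had none of 12 genes called on either day in the authors' deposited tables. None was at an unadjusted p below 0.05 there either. Beside the same shares over all loci, this does not show that the clathrin genes were unaffected. CLTC, the clathrin heavy chain, was at 151 FPKM on soft and 145 on stiff gel at day 3.5 and at 146 on soft and 152 on stiff gel at day 0, and AP2M1, the cargo-binding adaptor subunit, at 175 on soft and 141 on stiff gel at day 3.5 and at 178 on soft and 151 on stiff gel at day 0. These levels are well above those of every caveola coat gene on the FPKM scale.

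Some markers of other cell types moved with AHNAK at day 3.5, and their part in the result was not tested. Over all loci tested at day 3.5, the authors' deposited table called 1.33% (1.08% higher on soft and 0.252% higher on stiff). It called 3 of 7 fibroblast markers higher on the soft gel, and the list summed to 257 FPKM on soft and 67.5 on stiff gel. LUM was at 136 FPKM on soft and 4.69 on stiff gel and DCN at 38.7 on soft and 3.79 on stiff gel. Others of the list did not follow them: COL1A2 was at 18.2 on soft and 24.2 on stiff gel, and THY1 at 25.5 on soft and 26.8 on stiff gel, both uncalled in the authors' deposited table. Of 7 amnion and trophoblast markers, the authors' deposited table called 3 higher on the soft gel (sum 202 on soft and 40.6 on stiff gel), with VTCN1 at 81.3 on soft and 7.44 on stiff gel and GABRP at 62.0 on soft and 10.6 on stiff gel. Changes of this list were above 0 in 6 of 7. CGA went the other way, at 0.242 on soft and 1.03 on stiff gel, and was uncalled. Of 7 tested smooth muscle markers 1 was called, TPM1, at 780.4 FPKM on soft and 243 on stiff gel (sum of the list 971 on soft and 388 on stiff gel), while the defining marker MYH11 was below 1 in all 4 groups. Endothelial cells are rich in caveolae. Of 9 listed endothelial markers 7 had a row of their own, PECAM1 and ESAM not among them. These 7 summed to 58.8 on soft and 46.1 on stiff gel. CDH5, a defining endothelial gene, was below 1 FPKM in all 4 groups, and the authors' deposited table called VWF higher on the stiff gel, at 0.873 on soft and 6.12 on stiff gel. The statistic of VWF, 1.78, was below 1.96. Of 6 tested endothelial markers 5 had a change above 0 (median 0.41). KDR was at 23.0 on soft and 14.8 on stiff gel and ERG at 2.94 on soft and 1.16 on stiff gel. Both were uncalled, with an unadjusted p below 0.05 in the authors' deposited table, as had 5.93% of all loci. The mesoderm markers summed to 183 on soft and 45.4 on stiff gel, with 3 of 8 called higher on the soft gel, and the pluripotency markers to 510 on soft and 824 on stiff gel, with none of 6 called and 2 (SOX2 and LIN28A) at an unadjusted p below 0.05, in the authors' deposited table.

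Beside the caveolins at day 0, smooth muscle markers summed to 902 FPKM on soft and 1264 on stiff gel, with TAGLN at 195 on soft and 489.6 on stiff gel (the authors' deposited table called TAGLN alone, higher on stiff). That table called 0.139% of all loci tested at day 0 (0.0635% higher on soft and 0.0751% higher on stiff). Fibroblast markers summed to 155 on soft and 208 on stiff gel, with COL3A1, DCN, LUM and POSTN all below 1 on both gels. Most of that sum was THY1, at 135 on soft and 191 on stiff gel, while COL1A1 was at 9.32 on soft and 8.95 on stiff gel and COL1A2 at 9.45 on soft and 7.75 on stiff gel. The 7 endothelial markers with a row of their own summed to 36.1 on soft and 37.6 on stiff gel. Amnion and trophoblast markers summed to 15.6 on soft and 8.83 on stiff gel, and the authors' deposited table called 1 of 3 tested, TFAP2A, higher on soft. The part of these cells in the caveolin values was not tested.

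Genes with the most similar profile over the 4 groups were sought among 10256 genes that were tested on both days and reached 5 FPKM in some group. Likeness was the root mean square difference between profiles of log2(FPKM + 1), each centred on its own mean, over 4 values only and across separately made tables. AHNAK was nearest to CDH11, a mesenchymal cadherin (0.190), and LEF1, a transcription factor of WNT signalling (0.219), where the median gene lay at 1.76. CDH11 was at 106 FPKM on soft and 33.6 on stiff gel at day 3.5, and at 6.43 on soft and 6.08 on stiff gel at day 0. CAV1 was nearest to LINC00428 (0.206) and AC073071.1 (0.215), and CAV2 to a locus known only by a clone name (0.180) and AK4 (0.196), an adenylate kinase of mitochondria. PTRF was nearest to ZNF573 (0.00714) and NUDT6 (0.00932), PRKCDBP to RP13-383K5.4 (0.0215) and CTD-2643K12.1 (0.0484), and EHD2 to RANBP1 (0.0319) and TMSB15A (0.0486). SDPR has a flat profile near 0 and was nearest to the flat profiles of ALKBH5 and BROX (both 0.0101). Among the 7 genes themselves, PTRF and SDPR (0.326) and PTRF and PRKCDBP (0.388) were closest, and CAV1 and AHNAK (2.75) farthest apart. The median gene lay at 0.356 from PTRF, 0.219 from SDPR and 0.700 from PRKCDBP. PTRF thus lay about as far from SDPR and PRKCDBP as from the median gene. SDPR was farther from PTRF than from the median gene.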

How the data were processed

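RNA sequencing tables of H9 cells in 4 groups of 2 libraries were used. The authors made the deposited FPKM values with Cufflinks (build hg19), per the submitters' processing notes, with 1 value per group. Aligner, annotation, strand setting and versions: not given in the sources used here. Of the authors' comparison, the deposited columns give a log2 ratio (60 kPa over 400 Pa, nothing added), a test statistic (score), a p-value and a q-value. A Benjamini-Hochberg adjustment over tested loci returned the deposited q-values. With no value per library, no count model or fit over libraries could be made, and depth is unknown.

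The 7 genes, the 11 lists beside them (8 of whose genes had no row of their own and were not analysed here) and the tests were chosen with earlier results of these data known. The row with the highest mean FPKM stood for a symbol, and unnamed loci were each counted. Of each list, called genes were named, otherwise up to 2 with the highest mean FPKM (marker lists: up to 2 called, otherwise 1); for likeness, 2 genes per member. AHNAK2, MET, TES, ATP6V0A1, GLTSCR1, the markers CDH5, KDR, ERG, CGA, MYH11, COL1A1, COL1A2, COL3A1, POSTN, THY1, SOX2 and LIN28A, PAG1, CD36 and the transcripts sharing an interval were named after their values were seen. Coordinates are the authors' on hg19, written 1-based. RefSeq (GRCh38.p14) gave promoter sequences and the order of neighbouring genes only. The comparison of days was tested on simulated data, where it missed most of the differences put in, large ones included. Simulated noise was drawn from the same approximate errors, so the simulation cannot show whether those errors suit these data. Alternatives were other pseudocounts, FPKM minimums and thresholds, a fold minimum, a new adjustment, every row counted, centring, and rescaling without the 10 highest loci. Computations ran in Python 3.11.15 with scipy 1.17.1, numpy 2.4.6, matplotlib 3.10.9 and pandas 2.3.3.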

Additional observations from a re-analysis of the deposited data

Results flagged for a closer look

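The change of ANXA1 with stiffness differed between the days in the test of the difference itself: it was 3.13 log2 units higher for 400 Pa over 60 kPa at day 3.5 than at day 0 (SE 0.69; adjusted p = 0.00952 by the normal approximation over 14315 genes of the authors' deposited tables). ANXA1 reached 46.8 FPKM on the soft gel and 10.6 on the stiff gel at day 3.5, and 12.7 on soft and 25.4 on stiff gel at day 0. Each value stands for a group of 2 libraries.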

How the results depend on the processing

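No paired analysis was possible because the tables hold no value per library, and for the same reason no replicate could be left out in turn. The number of the 7 genes called at day 3.5 was 1 as reported and 0 both at q below 0.01 and when a call also needed a statistic of at least 1.96 (a limit chosen after seeing the data). At q below 0.01, 128 loci remained called at day 3.5 (108 higher on 400 Pa and 20 on 60 kPa) and 0 at day 0 (0 in each direction). The smallest q in the authors' deposited table of day 0 was 0.0390, so no locus could pass 0.01 there. That setting therefore cannot show how firm the day 0 calls are. As reported, 24 loci were called at day 0, and 322 had an unadjusted p below 0.05 in the authors' deposited table. With the limit on the statistic, 30 loci in place of 46 were called higher on 60 kPa at day 3.5. Of the 4 called genes of the list of AHNAK partners and membrane repair, ANXA1 and S100A11 stayed called at q below 0.01. S100A10 and ANXA2, the complex that binds AHNAK, lost the call. Rescaling without the 10 highest loci, which held 44.9% to 52.1% of the summed FPKM, turned the median change of all loci to -0.0362 at day 3.5 and -0.0587 at day 0, and that of the day 3.5 minus day 0 difference to -0.0566 on 400 Pa and -0.0767 on 60 kPa. The changes of all 7 genes kept their sign under this rescaling, the other pseudocounts and centring, as did their day 3.5 minus day 0 differences. All other counts of called loci and of called members stayed within 1.5 times. Depth is unknown, so low levels such as those of SDPR, CAV2 and EHD2 have no stated limit.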
